A study of Caenorhabditis elegans with 2 samples.

Results

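The regions described are calls on the X chromosome of Caenorhabditis elegans whose summit lay over 500 bp from every annotated tRNA, snoRNA, snRNA or miRNA gene. They came from chromatin immunoprecipitation followed by sequencing of whole young adult hermaphrodites of strain OP385. This strain carries the transgene wgIs385, which expresses F55B11.4 with a C-terminal GFP-FLAG tag, in an unc-119(tm4063) background, and GFP was the target of the antibody. Animals were grown for 65 hours after starved first-stage larvae were released. There was 1 group with 2 biological replicates from separate biosamples, and 1 control library, not analysed here, served both. The tagged protein came from 1 inserted transgene line and whole animals were used, so tissues cannot be told apart.

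The filter kept 4317 X calls of the 21050 calls in the replicate 1 list, 2470 of 14257 in the replicate 2 list and 102 of 670 in the list made from the pooled reads. It left out 189, 138 and 48 X calls of these lists. Under the same filter the autosomes (chromosomes I to V) held 16147 calls in replicate 1, 11274 in replicate 2 and 409 in the pooled list. The X calls kept nearest to the 500 bp limit were 504 bp from a small RNA gene in replicate 1, 516 bp in replicate 2 and 851 bp in the pooled list, and the nearest left out were at 499, 500 and 435 bp. The deposited notes describe these lists as peaks and background. The median q-value of the X calls was 0.826 in replicate 1, 0.849 in replicate 2 and 0.824 in the pooled list, and only 2 X calls of replicate 1, 1 of replicate 2 and 0 pooled X calls had q under 0.1. The authors' optimal set had 6 X peaks, 12.5% of the set, and 0 of them passed the filter. Its autosomal peaks that passed numbered 11, or 22.9% of the set. With only 6 X peaks, these counts cannot set X apart from the autosomes.

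In C. elegans, hermaphrodites carry a pair of X chromosomes and males carry a single one. The dosage compensation complex, a condensin-like assembly, binds both hermaphrodite X chromosomes and lowers their transcription in somatic cells, and it is recruited at sites that often hold a motif called MEX. The X chromosome is also poor in genes active in the germline, where it is largely silent, and is rich in tRNA genes. In the annotation used here X held 276 of the 612 nuclear tRNA genes. The filter left 98.1% of X (17.4 Mb) and 81.6 Mb of the autosomes as eligible sequence.

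Of the pooled X calls left out by the filter, 45 of 48 were nearest to a tRNA gene, 2 to a snoRNA gene and 1 to a miRNA gene. Their signal values, the authors' unitless score of peak strength, had a median of 35.1 and reached 57.6, while the 102 pooled X calls kept ranged between 28.4 and 44.7. The highest rank of any X call kept was 54 in the pooled list, 42 in replicate 1 and 49 in replicate 2, at different sites. The windows of 201 bp around 5 of the 6 strongest pooled summits are printed from the RefSeq copy of the WBcel235 assembly (ce11), plus strand, to show the bases under the strongest X calls away from small RNA genes. The summit is the middle base. Capitals mark any match, on either strand, to CGCAGGG (part of MEX), TGATAA (bound by GATA factors), CACGTG (an E-box), GAGAGA or GTTCNANNC (the core of the B box, an internal promoter element of tRNA genes). A sequence with no capitals held none of these letters.
mxl-3 call, chrX:13350945-13351145: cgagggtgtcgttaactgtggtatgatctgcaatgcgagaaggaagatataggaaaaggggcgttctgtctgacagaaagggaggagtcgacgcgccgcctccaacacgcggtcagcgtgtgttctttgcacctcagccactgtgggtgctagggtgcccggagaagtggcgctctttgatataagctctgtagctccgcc
T13C5.6 call, chrX:6207794-6207994: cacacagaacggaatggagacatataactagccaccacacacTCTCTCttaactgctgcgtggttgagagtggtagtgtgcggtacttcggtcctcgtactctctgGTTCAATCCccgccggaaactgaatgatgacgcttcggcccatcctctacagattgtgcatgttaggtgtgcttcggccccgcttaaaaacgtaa
ain-1 call, chrX:16612363-16612563: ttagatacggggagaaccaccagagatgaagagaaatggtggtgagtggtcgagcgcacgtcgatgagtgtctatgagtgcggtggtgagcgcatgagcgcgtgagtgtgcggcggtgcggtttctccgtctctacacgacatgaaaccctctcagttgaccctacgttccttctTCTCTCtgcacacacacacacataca
daf-12 call, chrX:10637290-10637490: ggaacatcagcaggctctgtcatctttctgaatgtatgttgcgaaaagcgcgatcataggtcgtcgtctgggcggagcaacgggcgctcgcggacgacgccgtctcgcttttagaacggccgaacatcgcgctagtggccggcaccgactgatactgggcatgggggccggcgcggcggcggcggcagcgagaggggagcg
slcf-1 call, chrX:10530963-10531163: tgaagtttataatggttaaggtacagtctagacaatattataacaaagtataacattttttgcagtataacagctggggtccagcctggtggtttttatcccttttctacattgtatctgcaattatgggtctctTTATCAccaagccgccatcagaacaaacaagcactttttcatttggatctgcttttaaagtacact

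The strongest pooled call (chromosome X, 13350810 to 13351279) had a signal value of 44.7 in the pooled list, 16.3 in replicate 1 and 28.1 in replicate 2, which are separate scales. Its summit at 13351045 lay 241 bp upstream of the 5′ end of mxl-3, which encodes a Max-like helix-loop-helix transcription factor. In single libraries the same site ranked 370 in replicate 1 and 72 in replicate 2. The next call (summit 6207894, pooled signal value 42.3) lay 207 bp upstream of T13C5.6 and ranked 507 in replicate 1 and 148 in replicate 2. Its window held both a GAGAGA match and a B box match, and the nearest annotated tRNA gene was 12176 bp away. The call after it (summit 8159408, pooled signal value 40.5) lay in a coding exon of hil-3, a linker histone gene, 239 bp downstream of its 5′ end, and ranked 344 in replicate 1 and 519 in replicate 2. These 3 sites were within the strongest 10% of each single-library list.

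Of the other calls among the 15 strongest, some had very different ranks in the 2 libraries and others did not. An intergenic call 988 bp upstream of ain-1, which encodes a GW182-type protein of the miRNA silencing complex, had a pooled signal value of 39.5 (summit 16612463). It ranked 4768 in replicate 1 and 49 in replicate 2, where it was the strongest X call kept. The call in an intron of daf-12, the nuclear receptor gene of the dauer decision, had a pooled signal value of 38.7 (summit 10637390) and ranked 313 in replicate 1 and 666 in replicate 2. Its window had 64.7% GC, the highest of all 102 pooled X calls. A coding exon call in slcf-1, which encodes a monocarboxylate transporter-like protein, had a pooled signal value of 38.7 (summit 10531063) and ranked 349 in replicate 1 and 1473 in replicate 2. An intergenic call 2437 bp downstream of the 5′ end of F22H10.2 (summit 16681977) ranked 65 in replicate 1 and 2262 in replicate 2.

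The remaining 8 had pooled signal values between 33.8 and 35.8. A summit in a coding exon of tatn-1, the tyrosine aminotransferase gene, lay 1127 bp upstream of sprr-2, its nearest 5′ end (summit 14792318). Others were 498 bp upstream of got-2.2, an aspartate aminotransferase gene (summit 6240485), and in introns of cutl-3 (summit 14997828), a cuticlin-like gene, and sedl-1 (summit 1439773), the sedlin gene. A summit at 3757249 was in a coding exon of T14G12.12 and another at 4005351 was in the 5′ untranslated region of R02E12.4. A summit at 15967707 lay in a non-coding gene, an annotated pseudogene, with its nearest coding 5′ end 7660 bp away at C09G1.5. This site ranked 12552 in replicate 1 and 305 in replicate 2, and the R02E12.4 site ranked 5544 and 174. The last was 596 bp upstream of C13E3.1 (summit 8892512). All 15 sites overlapped a call in both libraries, 11 were in the strongest 10% of the replicate 1 list, 12 in that of replicate 2 and 8 in both. The pooled list was made from the reads of both replicates, so this overlap is partly built in.

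**Figure D1:**
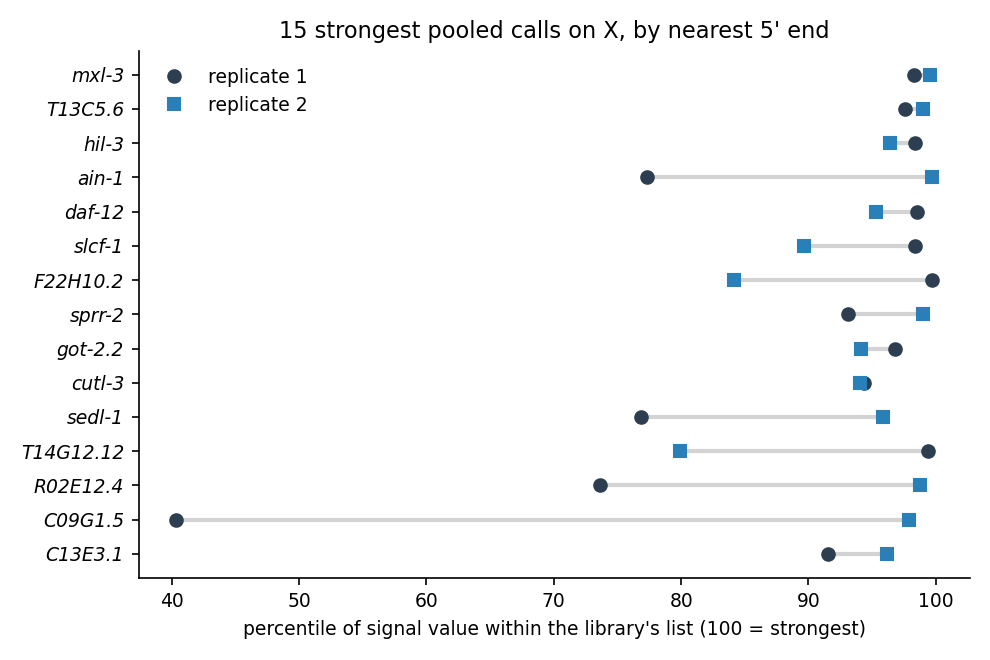
Percentile of the signal value (x axis, 100 is the strongest call of the list) in replicate 1 (circles) and replicate 2 (squares) for the 15 strongest pooled X calls (y axis, named by nearest protein-coding 5′ end, strongest at the top). Most points lie above 90, while the C09G1.5 site was at 40.4 in replicate 1 and 97.9 in replicate 2.

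Of all 102 pooled X calls, 94 (92.2%, exact 95% interval 85.1 to 96.6) overlapped a call in both libraries, against 87.5% (83.9 to 90.6) of the 409 autosomal ones. A further 5 X calls overlapped a call of replicate 1 only and 3 a call of replicate 2 only. On the autosomes these numbers were 8 and 43. A call of the usual width would overlap a replicate 1 call at 21.3% of eligible X positions and 17.2% of autosomal ones. Overlap of pooled calls with replicate 1, divided by this share, was 4.57 on X and 5.21 on the autosomes. Intervals here and elsewhere cover the counting of calls only, and neighbouring calls are not independent. Sequencing depth is unknown, since the lists give no reads.

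X calls were denser than autosomal calls in replicate 1 and about as dense in replicate 2. Replicate 1 had 248 X calls per Mb of eligible sequence, against 198 on the autosomes, a ratio of 1.26. Replicate 2 had 142 X calls per Mb, against 138 on the autosomes, a ratio of 1.03. In replicate 1 X was above all 5 autosomes, which ranged between 182 on chromosome I and 214 on chromosome V. In replicate 2 it lay inside their range of 131 to 145. The pooled list had 5.87 X calls per Mb, against 5.01 on the autosomes, again inside the range of single autosomes (4.17 to 6.38). The mean ratio of the single libraries was 1.14 ± 0.160 (SD, n = 2).

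Differences between X and the autosomes were tested by an exact two-sided paired permutation test, which with 2 libraries cannot give p under 0.5, and it gave 0.5 for the density ratio. The differences below are given as descriptions of these lists, each with its SD over the libraries where it is averaged. X also held less repeated sequence. Of the eligible 32-base words, 5.44% were repeated on X and 9.21% on the autosomes. Without windows in which over 50% of words were repeated, the density ratio was 1.22 in replicate 1 and 0.998 in replicate 2.

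**Figure D2:**
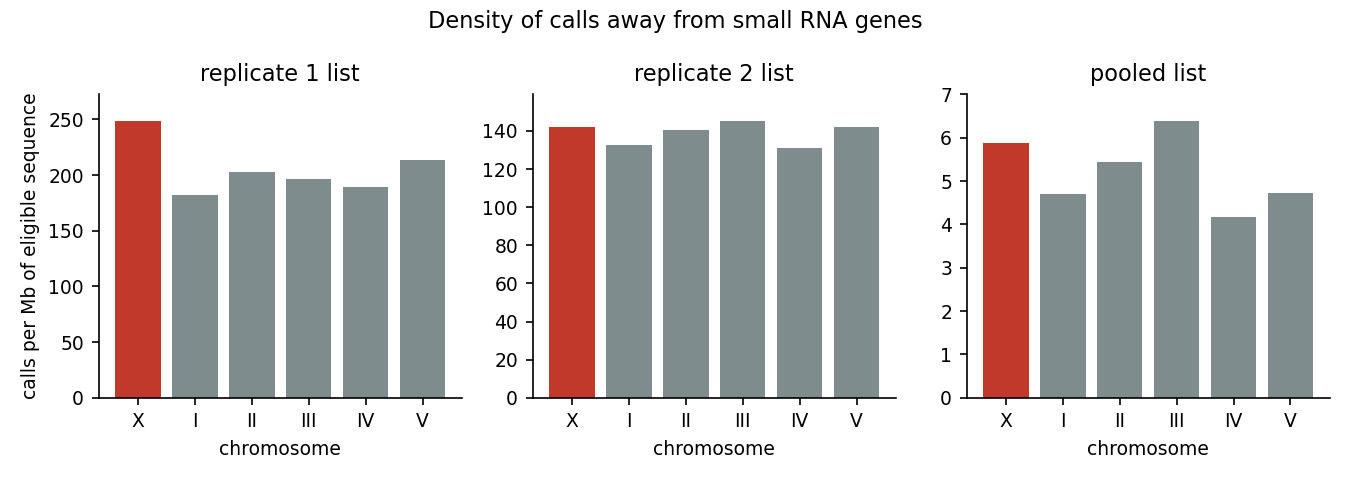
Calls over 500 bp from small RNA genes per Mb of eligible sequence (y axis, from 0, own scale in each panel) on X (red) and on each autosome (grey), in the replicate 1, replicate 2 and pooled lists. X stands above the autosomes in replicate 1 at 248 and within their range in replicate 2 at 142.

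Along X the density varied about as much from bin to bin as along the autosomes. The 17 full 1-Mb bins held between 199 and 279 calls per Mb in replicate 1, with a median of 252 and a coefficient of variation of 8.30%. In replicate 2 they held between 108 and 163, with a median of 146 and a coefficient of variation of 9.97%. The coefficients of single autosomes ranged between 6.99% on chromosome V and 11.7% on chromosome I in replicate 1, and between 9.04% on chromosome II and 11.5% on chromosome IV in replicate 2. By mean density the 3 densest bins were 12000001 to 13000000 (214 calls per Mb), 16000001 to 17000000 (213) and 11000001 to 12000000 (209). The 3 sparsest were 1 to 1000000 (154), 7000001 to 8000000 (186) and 10000001 to 11000000 (186). The leftmost bin was the lowest of the full bins in both libraries, with 199 calls per Mb in replicate 1 and 108 in replicate 2, and it also had the most repeated words, 18.3%. The part of this in the low density was not tested. The partial bin at the right end, with 9.80% repeated words, had 198 and 118 calls per Mb.

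The libraries shared little else of the profile along X. Across the 17 bins the densities of the 2 libraries had a Pearson r of 0.355 and a Spearman rho of 0.0662, given as a description of neighbouring bins that share 1 control library. The central stretch of X, from 5906315 to 11812628, held 34.0% of the X calls of replicate 1, 31.7% of those of replicate 2 and 35.3% of the pooled X calls, against 33.3% of eligible X sequence. The excess was thus 0.641 percentage points in replicate 1 and -1.68 in replicate 2, of opposite sign (p = 1, exact paired permutation test).

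**Figure D3:**
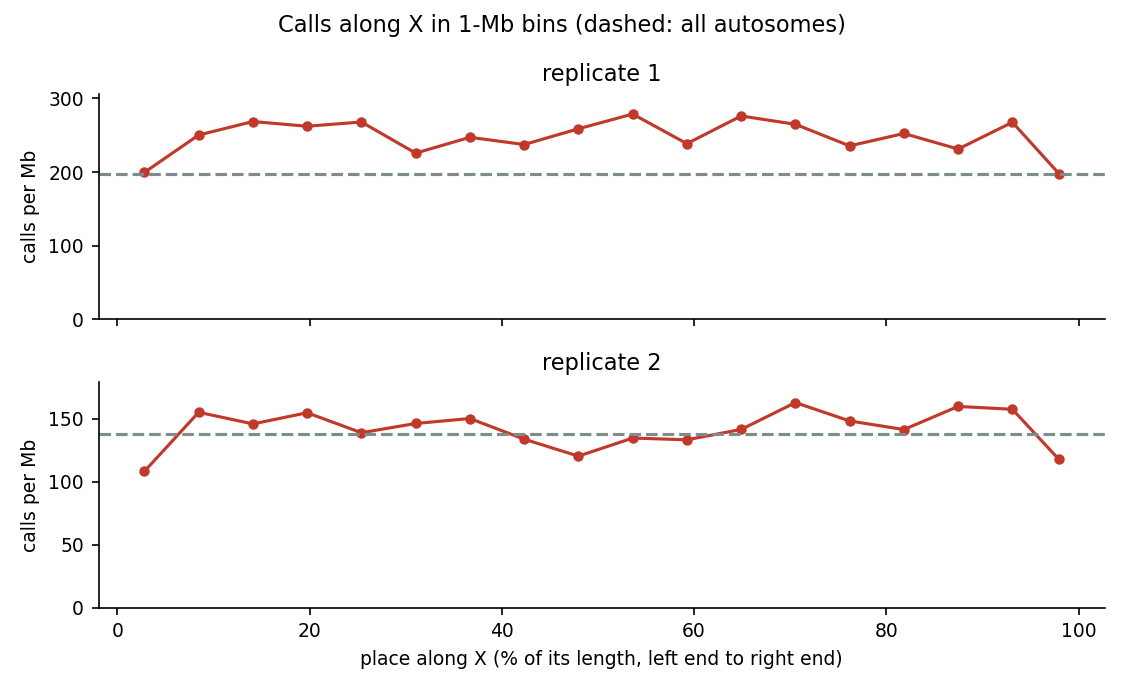
Calls per Mb of eligible sequence (y axes, from 0) in consecutive 1-Mb bins along X (x axis, per cent of its length), for replicate 1 above and replicate 2 below. The dashed line is the density over all autosomes, 198 and 138; both ends of X are low, and the replicate 1 profile lies above its line in all bins but the partial last one.

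Relative to protein-coding genes, X summits were in coding exons more often than the share of sequence there. Coding exons held 25.1% of the X summits of replicate 1 (exact 95% interval 23.8 to 26.5) and 26.0% of those of replicate 2 (24.3 to 27.8), against 19.3% of eligible X sequence. The ratios to sequence were 1.30 and 1.35 on X, close to 1.26 and 1.29 on the autosomes. In the pooled list 36 of 102 X summits (35.3%, 26.1 to 45.4) were in coding exons, 1.83 times the share of sequence. On the autosomes this was 38.9% of pooled summits, 1.61 times the share of sequence. Intergenic sequence was 34.4% of eligible X but held 29.2% of X summits in replicate 1, 29.0% in replicate 2 and 20.6% in the pooled list. These are ratios of 0.849, 0.843 and 0.599, against 0.815, 0.780 and 0.553 on the autosomes. Introns held 28.3% of X summits in replicate 1 and 26.6% in replicate 2, against 28.9% of sequence. The intron ratios were 0.978 and 0.922 on X, and 0.928 and 0.885 on the autosomes. Protein-coding genes as a whole contained 61.2% of X summits in each library, against 69.5% and 69.7% of autosomal ones. Eligible sequence differed in the same way, with 55.9% inside such genes on X and 64.2% on the autosomes. The ratio to sequence was 1.094 on X and 1.081 on the autosomes in replicate 1, and 1.0945 and 1.085 in replicate 2.

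X summits lay near 5′ ends less often than autosomal summits, and X sequence did so too. A protein-coding 5′ end lay within 500 bp of 20.3% of X summits of replicate 1 (19.1 to 21.6) and 20.3% of those of replicate 2 (18.7 to 21.9). The autosomal shares were 26.6% and 27.01%. Eligible sequence that near to a 5′ end was 18.9% on X and 24.1% on the autosomes, which gives ratios of 1.08 and 1.07 on X, against 1.104 and 1.12 on the autosomes. In replicate 1 the X ratio was above 2 of the 5 autosomes, and in replicate 2 it was below all 5, whose lowest was 1.097 on chromosome V. The difference of the shares was -6.50 ± 0.324 percentage points and that of the ratios -0.0364 ± 0.0139 (SD, n = 2). In the pooled list the ratio was 1.35 on X and 1.21 on the autosomes, with only 26 X summits that near. The median distance to the nearest 5′ end was 1458 bp on X and 1136 bp on the autosomes in replicate 1, and 1524 bp on X and 1133.5 bp on the autosomes in replicate 2.

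At 3′ ends X had the lowest ratio to sequence of the 6 chromosomes in each list. The 3′ end of a protein-coding gene lay within 500 bp of 12.3% of X summits in replicate 1, 13.8% in replicate 2 and 16.7% in the pooled list, against 13.4% of eligible X sequence. On the autosomes the shares were 21.4%, 22.02% and 32.03%, against 17.9% of eligible sequence. The ratio to sequence was thus 0.914 on X in replicate 1, below all 5 autosomes (1.11 on chromosome V to 1.35 on chromosome I). It was 1.03 on X in replicate 2, below 1.13 on chromosome V to 1.42 on chromosome III. In the pooled list it was 1.24 on X, against 1.28 on chromosome V to 2.36 on chromosome III, but only 17 X summits were that near (interval of the share 10.02 to 25.3%). The difference of the ratios, X minus autosomes, was -0.245 ± 0.0562 (SD, n = 2; p = 0.5, exact paired permutation test), lower on X in both libraries. This measure was chosen after its values were seen.

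**Figure D4:**
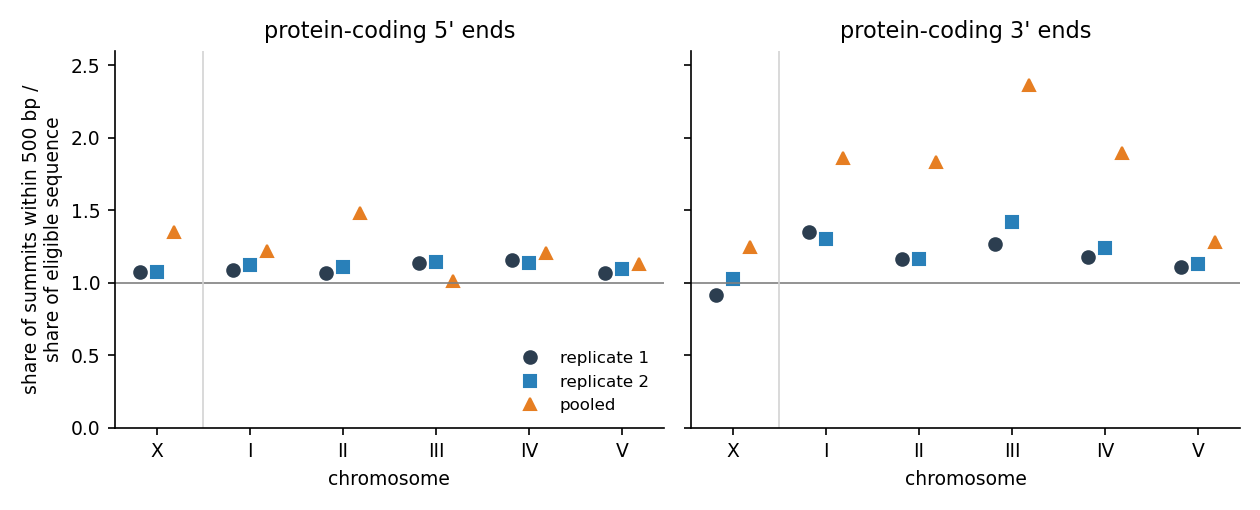
Share of summits within 500 bp of a protein-coding 5′ end (left) or 3′ end (right) divided by the share of eligible sequence that near (y axis), for X and each autosome (x axis), in replicate 1 (circles), replicate 2 (squares) and the pooled list (triangles). At 3′ ends X is the lowest chromosome in each list, at 0.914, 1.03 and 1.24; at 5′ ends its single-library values are 1.08 and 1.07, against 1.104 and 1.12 over all autosomes.

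Among X-linked genes 757 of 2731 (27.7%) had a call within 500 bp of a 5′ end in replicate 1, 458 (16.8%) in replicate 2, 202 (7.40%) in both and 27 (0.989%) in the pooled list. The autosomal shares were 22.6%, 16.7%, 6.20% and 0.713% of 17242 genes. Of 7 X-linked genes of sex determination and dosage compensation, 1 had a call in both libraries, fox-1, which encodes an RNA-binding protein that takes part in the X chromosome count. Its calls ranked 3216 in replicate 1 and 5479 in replicate 2, at different 5′ ends of the gene, with summits at 2452216 and 2450904. Counts of genes with calls in both libraries are thus counts of genes, not of shared sites. The sex switch gene xol-1, sdc-1 and sdc-2 of the dosage compensation complex, sex-1 and ceh-39 had 0 calls that near in either library, and tra-4 had 1 in replicate 1 only.

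In what follows each pair of ranks gives replicate 1 and then replicate 2. The calls of a pair each lay within 500 bp of some 5′ end of the gene and need not overlap. For nhr-40 the summits were at 2594033 and 2599780, while for elt-2 they were at 10481393 and 10481390. Nuclear receptor genes had calls in both libraries at 5 of 23 X members (21.7%), nhr-214 with ranks 4302 and 3094, nhr-40 with 11091 and 9093, nhr-1 with 10412 and 13872, and nhr-26 with 13882 and 12764 among them. Of 22 homeobox genes 2 did, the onecut gene ceh-21 (4721 and 6473) and ceh-40 (16900 and 5828), and of 29 collagen genes 2 did, col-19 (690 and 11324) and col-9 (11776 and 12412). The adult cuticle collagen gene col-19 was the only list member with a pooled call within 500 bp of a 5′ end, with a signal value of 29.2. Farther inside list members, pooled summits lay in an intron of the vitellogenin gene vit-2 (summit 5105791, signal value 32.6) and in a coding exon of the small heat shock protein gene hsp-43 (summit 6234778, 29.6). Ion channel and receptor genes of neurons had 3 of 40, lgc-53 (2558 and 3437), the potassium channel gene twk-18 (7997 and 2936) and the innexin gene unc-7 (9602 and 3182). The muscle list had 1 of 7, which was twk-18 too. Neuropeptide genes had 1 of 34, nlp-61 (3656 and 13532).

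Smaller lists gave single genes. The intestinal GATA factor gene elt-2 ranked 9896 in replicate 1 and 1504 in replicate 2, and was 1 of 3 intestine genes. The endoplasmic reticulum chaperone gene hsp-3 (409 and 4514) was 1 of 3 heat shock genes, vha-20 (8321 and 6301) 1 of 3 vacuolar ATPase genes and clec-86 (8905 and 3629) 1 of 3 C-type lectin genes. Detoxification genes had 2 of 14, ugt-46 (3797 and 11839) and ugt-57 (16056 and 13296). With the same limit of 500 bp, vitellogenin genes had 0 of 5, ribosomal protein genes 0 of 2 and the listed histone genes 0 of 4. The linker histone gene hil-3, whose calls are described above, was not on the histone list. The proteasome list had 0 X-linked members. All of these counts stand beside 7.40% over all X genes, and no list was tested.

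Windows around X summits were richer in G and C than their surroundings. Within 100 bp of X summits GC was 37.4% ± 7.20 in replicate 1 and 38.2% ± 7.51 in replicate 2 (SD across calls), against 35.3% and 35.6% in windows 1000 bp away on both sides. The rise was 2.10 percentage points in replicate 1, positive for 2543 of 4317 X calls, and 2.59 in replicate 2, positive for 1477 of 2470. On the autosomes the rises were 1.75 and 2.10, positive for 9350 of 16147 and 6640 of 11274 calls. X had a larger mean rise than each of the 5 autosomes in both libraries. The difference of the rises was 0.419 ± 0.107 points (SD, n = 2; p = 0.5, exact paired permutation test). It was small beside the SD across X calls of 8.20 points in replicate 1 and 8.42 in replicate 2. The GC level itself was 37.6% in replicate 1 and 38.2% in replicate 2 on the autosomes, and the difference, X minus autosomes, was -0.211 points in replicate 1 and 0.000177 in replicate 2.

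The pooled X calls had a mean GC of 41.9% ± 7.75 (SD across calls) and a rise of 5.38 points, against 41.6% and 4.45 points on the autosomes. The pooled rise on chromosome IV, 5.50 points, was above that on X. Of the 102 pooled X windows, 82 were above the 35.18% of eligible X sequence. Within coding exons, X summits had 41.3% GC in replicate 1 and 42.2% in replicate 2, against 40.03% for all eligible X positions in coding exons. Between genes they had 35.5% and 36.0%, against 33.3%. The excess was therefore present both inside exons and between genes in each library, and the autosomes had it too. In coding exons it was 1.30 points on X and 1.55 on the autosomes in replicate 1, and 2.16 and 2.06 in replicate 2. Between genes it was 2.16 on X and 1.70 on the autosomes in replicate 1, and 2.65 and 2.46 in replicate 2. In 3′ untranslated regions the X excess was 1.19 points in replicate 1 and -0.489 in replicate 2, against 1.48 and 1.43 on the autosomes.

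Letters that mark the sequences printed above were counted in all 201-bp windows. GAGAGA was in 17 of 102 pooled X windows (16.7%, exact 95% interval 10.02 to 25.3), 11.6% of the X windows of replicate 1 and 12.5% of those of replicate 2. It was in 9.45% of 86433 consecutive windows that tile eligible X. On the autosomes it was in 14.9% of pooled windows, 11.8% and 11.9% in the single libraries, and 10.1% of tiles. TGATAA was in 8 pooled X windows (7.84%, 3.45 to 14.9), 17.5% of X windows in replicate 1 and 17.1% in replicate 2, against 19.03% of X tiles. On the autosomes it was in 13.0% of pooled windows, 16.5% and 16.3% in the single libraries, and 17.7% of tiles. CACGTG was in 0 of 102, which allows up to 3.55%, against 2.64% of X tiles, and in 2.87% of X windows in replicate 1 and 3.32% in replicate 2. On the autosomes it was in 4.89% of pooled windows, 4.42% and 4.15% in the single libraries, and 3.48% of tiles. CGCAGGG was in 2 of 102 (1.96%, 0.238 to 6.90), 0.417% in replicate 1 and 0.648% in replicate 2, against 0.322% of X tiles. Autosomal windows held it in 0.978% in the pooled list and 0.346% in replicate 2, where X was higher. In replicate 1 they held it in 0.483%, where X was lower, and autosomal tiles in 0.307%. The X counts were small, 18 windows in replicate 1 and 16 in replicate 2. The B box letters were in 11 of 102 (10.8%, 5.51 to 18.5), 8.36% in replicate 1 and 8.30% in replicate 2, against 7.47% of X tiles. On the autosomes they were in 5.38% of pooled windows, 7.16% and 7.495% in the single libraries, and 6.95% of tiles. The pooled X windows were also richer in GC than eligible X sequence, and the part of this in the counts was not tested. A match is a description of letters, not a bound site.

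Overlap between replicates on X was above the share of positions open to it, by a factor close to that of the autosomes. In replicate 1, 982 of 4317 X calls (22.7%, 21.5 to 24.03) overlapped a call of replicate 2 by at least 1 bp, against 23.4% of autosomal calls. In replicate 2, 922 of 2470 X calls (37.3%, 35.4 to 39.3) overlapped a call of replicate 1, against 31.8% of autosomal ones. Replicate 1 had more calls on X, so a call of the usual width placed at any eligible X position would overlap one for 21.3% of positions, against 17.2% on the autosomes. The reverse shares were 12.7% on X and 12.4% on the autosomes. Overlap over position share was 1.79 and 1.76 on X, against 1.89 and 1.85 on the autosomes, and X had the lowest ratio of the 6 chromosomes in each library. The libraries were called against 1 control, whose part in the overlap was not tested.

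Where X calls overlapped, their summits were a median of 125 bp apart from replicate 1 and 114 bp from replicate 2, against 123 and 113 bp on the autosomes. The signal values of the 982 overlapping X calls of replicate 1 had a Spearman rho of 0.0773 with those of replicate 2, against 0.0800 over the 3771 autosomal ones, a weak relation across calls that share a control. Overlap was more frequent among strong X calls. Among the 864 strongest X calls of replicate 1 it was 31.02%, and among the 863 weakest 19.6%. Among the 494 strongest of replicate 2 it was 43.7%, and among the 494 weakest 33.8%. Autosomal calls went the same way. The 3230 strongest of replicate 1 had 31.0% and the 3229 weakest 19.7%. In replicate 2 the 2255 strongest had 40.4% and the 2254 weakest 26.4%. X calls that overlapped the other library had more summits in coding exons than the other X calls (30.4% against 23.6% in replicate 1, 29.0% against 24.3% in replicate 2). They also had higher GC, 39.1% against 37.0% in replicate 1 and 39.2% against 37.6% in replicate 2. Both differences had the same direction on the autosomes. Coding exon shares there were 32.2% against 29.8% in replicate 1 and 32.8% against 30.5% in replicate 2. Autosomal GC was 39.1% against 37.2% in replicate 1 and 39.2% against 37.7% in replicate 2.

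By median rank X calls were slightly above autosomal calls in each library and below them in the pooled list. The median percentile of the X signal values was 51.6 in replicate 1 and 50.6 in replicate 2, against 49.1 for autosomal calls in each, while in the pooled list it was 37.5 on X and 44.5 on the autosomes. Of X calls 10.5% were in the strongest 10% of the replicate 1 list, against 9.23% of autosomal calls. In replicate 2 these shares were 9.23% of X calls and 9.11% of autosomal calls. In the pooled list they were 0.980% of X calls, which is 1 call, and 4.65% of autosomal calls. The difference in medians was 2.00 ± 0.645 percentiles over the 2 libraries (SD, n = 2; p = 0.5, exact paired permutation test).

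The libraries went opposite ways at the top of their lists. Of the 500 strongest nuclear calls that passed the filter, X held 135 in replicate 1 (27%, exact 95% interval 23.2 to 31.1) and 64 in replicate 2 (12.8%, 9.999 to 16.05), while X was 17.6% of eligible sequence. Of the 100 strongest, X held 27 in replicate 1, 11 in replicate 2 and 12 in the pooled list. With all calls counted the shares were 21.1% in replicate 1, 17.97% in replicate 2 and 19.96% in the pooled list. The excess of X among strong calls was thus seen in replicate 1 and not in replicate 2.

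**Figure D5:**
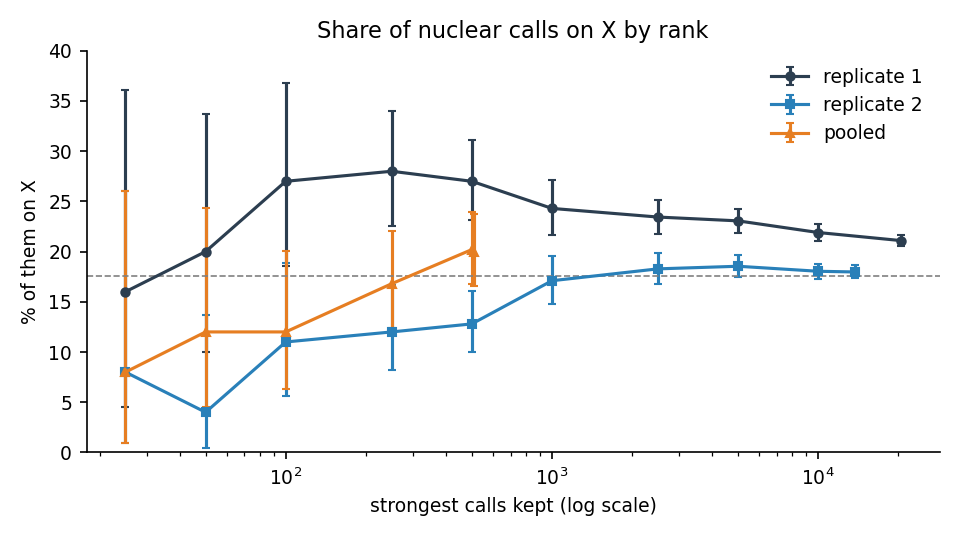
Share of nuclear calls away from small RNA genes that lay on X (y axis, per cent, bars are exact 95% intervals) among the strongest calls of each list (x axis, number kept, log scale), for replicate 1 (circles), replicate 2 (squares) and the pooled list (triangles). The dashed line is the 17.6% of eligible sequence on X; at 500 calls replicate 1 is above it at 27% and replicate 2 below it at 12.8%.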

How the data were processed

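Peak lists of 2 libraries were analysed on genome build ce11. Per the deposited notes, each list holds peaks and background called from 1 immunoprecipitated library, or from both pooled, against 1 control alignment, as input to the irreproducible discovery rate procedure. The aligner, peak caller and cutoffs were not named in these notes or the labels. The deposited signal value is a score on a scale that is not stated, and served to rank calls within a list. The deposited −log10 q-value served only as another ranking and to describe calls. Read depth was unknown, and precision is limited by the number of calls.

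Summits were taken as start plus offset, and genes and biotypes from the Ensembl release 115 annotation of WBcel235 (ce11). Eligible sequence was every base over 500 bp from a tRNA, snoRNA, snRNA or miRNA gene. Shares of sequence were counted over all such bases, without random placement. Each summit got the first class that applied: promoter (500 bp upstream), then 5′ untranslated, coding, 3′ untranslated, intronic, non-coding gene and last intergenic. Repeats were 32-base words found more than 1 time on either strand. Differences were tested by exact two-sided permutation over the 2 libraries, X paired with the autosomes of the same library. Exact intervals are Clopper-Pearson at 95%. The density ratio and the 3′ end measure were tested on simulated calls with a set effect. The 5′ end ratio and the GC rise were tested only without a set effect, and overlap on a toy set of intervals. The other measures were not tested this way. These runs checked the code, not the size of the reported differences. The text names the 15 strongest pooled X calls, up to 4 members of each of 16 gene lists with calls in both libraries, and the 3 densest and sparsest bins. Members and lists were chosen with earlier results of these data known. The B box letters and the 3′ end measure were added, and 1 gene that is no homeobox gene was taken off that list, after seeing the data. Python 3.11.15, NumPy 2.4.6, pandas 2.3.3, SciPy 1.17.1 and matplotlib 3.10.9 were used. Lists on ce10 entered 1 alternative, without annotation.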

Additional observations from a re-analysis of the deposited data

How the results depend on the processing

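The direction and range of a measure were judged on the mean over the libraries in a run, or on the pooled list alone. Of 114 values under alternative settings, for 12 measures, 104 kept the direction of the main value, and 6 measures turned in no alternative run. These 6 were the density ratio (1.03 to 1.26), the share near 5′ ends (-8.87 to -2.91 points), the 3′ end ratio (-0.550 to -0.109), the share inside genes (-8.53 to -5.70 points), the GC rise on X (1.90 to 5.38 points) and its difference from the autosomes (0.126 to 0.931 points). The shares near 5′ ends and inside genes are not set against sequence. Eligible sequence differs in the same direction, so their constant sign says little about the calls. The ranges at gene ends include limits of 200 and 1000 bp. With the pooled list alone, an alternative added after seeing the data, the 5′ end ratio difference was 0.143, the GC difference 0.225 points, the excess in the central stretch 1.95 points, the median percentile difference -7.01 and the difference in the strongest 10% -3.67 points, each of opposite sign to the mean of the single libraries. For the overlap the pooled list gives 7.57 points, but this counts overlap with replicate 1, whose reads it holds, and is another quantity. With the strongest 5000 calls of each list the median percentile difference was -0.525 and the difference in the strongest 10% -0.434 points. Within 200 bp the 5′ end ratio difference was -0.000432, with the libraries on opposite sides of 0. Without windows of repeated words the density ratio of replicate 2 was 0.998, below 1. With further small RNA biotypes left out it was 1.004 in replicate 2. Leaving out either library gave 0.000177 to -0.211 points for the GC difference, 0.641 to -1.68 points for the central stretch and -0.607 to 5.54 points for the replicate overlap, so the direction of each rests on 1 library at the main settings. The GC difference was -0.531 points with further small RNA biotypes left out and -0.450 with the strongest 5000 calls, lower on X in both libraries each time, against -0.105 at the main settings. The cause was not tested. Replicate numbers could not serve as a block between groups because there is only 1 group, and the pairs in the permutation test are X and the autosomes of the same library. Depth could not be compared between the libraries.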

Other observations

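Before the small RNA filter X held 150 pooled calls, 22.4% of that list, and the filter left out 48 of them, while it left out 189 of 4506 X calls in replicate 1 and 138 of 2608 in replicate 2. The 102 kept had a median percentile of 93.8 in replicate 1 and 91.4 in replicate 2 over the sites that overlapped a call there, but only 16 were in the strongest 10% of both libraries. The lowest percentile among them was 5.04 in replicate 1 and 14.0 in replicate 2.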
